A study of Mus musculus with 4 samples.

Results

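The 36 genes described here encode molecular chaperones and the sensors that control them, in the endoplasmic reticulum (ER), the cytosol and the mitochondria. They were taken by gene symbol, through the Ensembl gene identifier, from a gene table of 53139 rows, and each of the 36 matched 1 row. The list divides into 20 ER genes of the unfolded protein response and 16 heat shock genes, of which 13 are cytosolic or nuclear and 3 mitochondrial. RNA sequencing measured their transcripts in macrophages from MCA fibrosarcoma tumours of mice, 4 samples in all, labelled with the line 9609 parent and wild-type genotype. After treatment in culture, 2 samples had received MEK1-hi exosomes, and 2 had received MEK1-low exosomes, which the labels also mark as GFP. Exosomes are small vesicles released by cells, and MEK1 is the kinase that activates ERK. The comparison asks how recipient macrophages differ with the MEK1 content of the vesicles. The MEK1 content and the GFP mark cannot be told apart, and no untreated macrophages were among the 4 samples. Whether the samples within a group were separate cultures or animals is not labelled, so p-values measure at most the spread between these samples, which may be technical. Exosome dose, treatment time and mouse age are not in the labels used here.

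Proteins that enter the ER are folded by the Hsp70-type chaperone BiP with its J-domain partners, by the Hsp90-type chaperone GRP94, by the lectins calnexin and calreticulin, and by protein disulfide isomerases. When unfolded proteins accumulate there, the sensors IRE1, ATF6 and PERK start the unfolded protein response, which raises transcription of these chaperones through XBP1 and ATF6. In the cytosol and nucleus, the factor HSF1 drives transcription of Hsp70, Hsp90 and their co-chaperones after heat or other protein damage. Macrophages secrete large amounts of protein and express ER chaperones abundantly.

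The authors' table gave 1 value per group in FPKM (fragments per kilobase of transcript, scaled to library size), so no spread between samples accompanies any level below, and all tests are the authors' own Cuffdiff tests. A gene was called where the deposited q-value was under 0.05. The test covered 12648 rows, among them all 20 ER genes and 13 of the 16 heat shock genes. The depth of each sample is unknown. Macrophage markers were abundant, with a summed level of 23824 FPKM over 12 markers with MEK1-hi exosomes and 23163 FPKM with MEK1-low exosomes, and all 12 were tested. Most of both sums was Lyz2, at 13148 FPKM with MEK1-hi and 12303 FPKM with MEK1-low exosomes. Of the 12 markers, 7 had higher and 5 had lower values with MEK1-hi exosomes. Cd14, a lipopolysaccharide co-receptor, was called lower in the authors' deposited table. Fcgr1 stood at 153 FPKM with MEK1-hi and 107 FPKM with MEK1-low exosomes (p = 0.011 and q = 0.236 in the authors' deposited table). The 8 fibroblast or fibrosarcoma markers summed to 5.38 FPKM with MEK1-hi and 6.64 FPKM with MEK1-low exosomes, with 0 of 5 tested called. The B cell marker Cd79a was listed at 0 in both groups. The 7 T and NK cell markers summed to 4.87 FPKM with MEK1-hi and 7.07 FPKM with MEK1-low exosomes, mostly Cd4, which stood at 4.52 FPKM with MEK1-hi and 6.52 FPKM with MEK1-low exosomes and was the only one tested (not called); the T cell marker Cd3e was at 0.107 FPKM with MEK1-hi and 0.0702 FPKM with MEK1-low exosomes. The 7 neutrophil markers summed to 237 FPKM with MEK1-hi and 253 FPKM with MEK1-low exosomes, with 0 of 3 tested called and 4 listed at 0 in both groups. Most of this sum was Mmp8, at 184 FPKM with MEK1-hi and 179 FPKM with MEK1-low exosomes. The other tested neutrophil markers, S100a8 and Csf3r, had lower values with MEK1-hi exosomes. S100a8 stood at 22.6 FPKM with MEK1-hi and 35.5 FPKM with MEK1-low exosomes (p = 0.00405 and q = 0.118 in the authors' deposited table). The 5 endothelial or epithelial markers summed to 4.61 FPKM with MEK1-hi and 7.54 FPKM with MEK1-low exosomes, with 0 of 2 tested called. Most of this was Krt18, at 4.05 FPKM with MEK1-hi and 6.48 FPKM with MEK1-low exosomes (p = 0.0062 and q = 0.16 in the authors' deposited table). The 3 rows of mitochondrial RNA summed to 10836 FPKM with MEK1-hi and 11767 FPKM with MEK1-low exosomes, with 0 called. The part of these values in the differences below was not tested. In such bulk samples, fewer cells of a type and less RNA per cell cannot be told apart.

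The ER genes had slightly higher values with MEK1-hi exosomes in 18 of 20 cases, and the heat shock genes in 5 of the 13 tested, but none of the differences passed the test. Over all tested rows, 50.2% had a higher value with MEK1-hi exosomes and 49.8% a lower one. Cuffdiff called 0 of the 33 members tested, against 2.44% of all tested rows (0.751% higher and 1.69% lower). Without adjustment, the authors' deposited table gave p under 0.05 for 2 members, both higher, the disulfide isomerase genes Pdia4 and Pdia6. The same held for 8.66% of all tested rows, 3.53% higher and 5.12% lower, so the 2 of 33 members stand near the background. Scaling both groups to an equal sum of FPKM moved 1 ER gene, Ern1, to the higher side (19 of 20), and left the heat shock count at 5 of 13.

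The median log2 fold change (MEK1-hi over MEK1-low, 1 FPKM added to each value) was 0.11 over the 20 ER genes and -0.05 over the 13 heat shock genes tested, a difference of 0.16. The same median was 0.00 over 11804 tested rows of at least 1 FPKM. Within the heat shock genes, it was -0.08 over the 10 cytosolic or nuclear genes tested and 0.08 over the 3 mitochondrial ones. Among the further lists below, it was 0.12 for the cytosolic CCT chaperonin and 0.08 for mitochondrial protein quality control. It was 0.02 for other, chiefly cytosolic, chaperones. A median above 0 was thus not particular to ER genes. These medians describe group values and carry no test. Summed over the ER genes, the level was 3166 FPKM with MEK1-hi and 2898 FPKM with MEK1-low exosomes, which made up 0.506% of all FPKM with MEK1-hi and 0.449% with MEK1-low exosomes. Summed over the 16 heat shock genes, it was 1152 FPKM with MEK1-hi and 1184 FPKM with MEK1-low exosomes, a share of 0.184% of all FPKM in both groups.

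**Figure D1:**
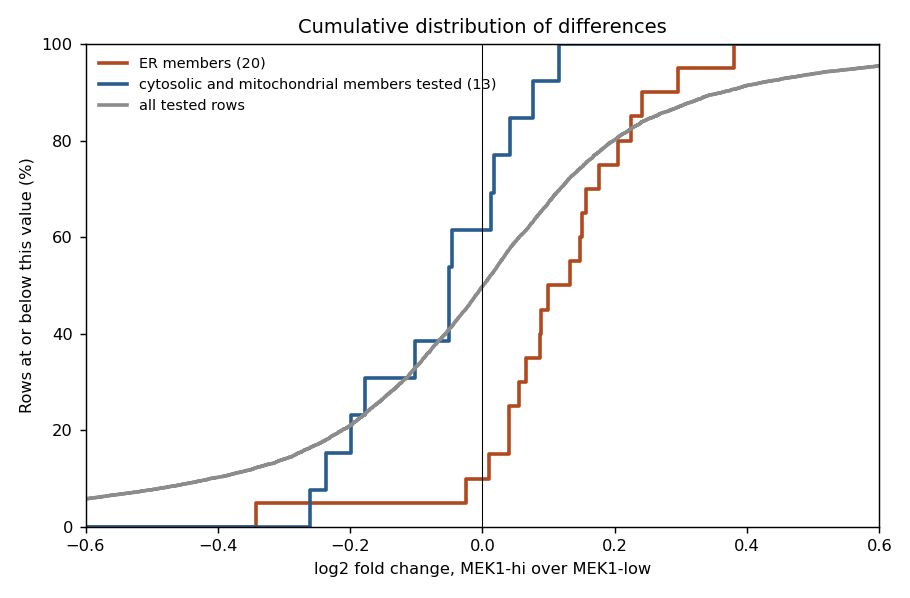
Cumulative share of rows (vertical axis, %) at or below each log2 fold change of MEK1-hi over MEK1-low (horizontal axis), for the 20 ER members, the 13 cytosolic and mitochondrial members tested and all 12648 tested rows, of which 42 at 0 in a group are not drawn. The ER curve lies to the right of the curve of all rows up to a value of about 0.2, with 2 members below 0, while 8 of the 13 heat shock members lie below 0.

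Promoter sequences are shown because they tie the genes to their known control: the ER stress element is the site through which ATF6 acts, and the heat shock element is bound by HSF1. Windows of 250 bases before to 50 bases after annotated start sites were available in RefSeq (GRCm38.p6) for 28 of the 36 members, 17 ER and 11 heat shock genes. The ER stress element was searched on both strands as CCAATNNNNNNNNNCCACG, the second type of this element as ATTGGNCCACG, which shares its CCACG end with the first, and the heat shock element as GAANNTTCNNGAA. The first element occurred in 7 of the 17 ER genes and 0 of the 11 heat shock genes, against 0.137% of all 27025 genes with a window. The heat shock element occurred in 0 of the 17 ER genes and 3 of the 11 heat shock genes, against 0.662% of all genes. Of these 3, Hspd1 and Hspe1 share the same stretch, and the match of Hsph1 lies after its start site. Hspa1a, Hspa1b and Dnajb1 had no exact match. The second type of ER stress element occurred in 2 ER genes, Herpud1 and Dnajb11, and in 0.0444% of all genes. These are textbook patterns already known for such genes, so an excess over all genes was largely fixed in advance. The shares carry no test. A match describes letters in the window and is not evidence of binding in these cells. Variants with a changed letter were not searched, so a window without a match may still hold such an element.

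The 250 bases before the start site are given for 3 members, 5′ to 3′ on the strand of the gene, with the fixed letters of each match in capitals. Hspa5, the gene of BiP, lies at chr2:34771840-34772089 (plus strand), Pdia6 at chr12:17266339-17266588 (plus strand) and Hspe1 at chr1:55087898-55088147 (plus strand).
Hspa5: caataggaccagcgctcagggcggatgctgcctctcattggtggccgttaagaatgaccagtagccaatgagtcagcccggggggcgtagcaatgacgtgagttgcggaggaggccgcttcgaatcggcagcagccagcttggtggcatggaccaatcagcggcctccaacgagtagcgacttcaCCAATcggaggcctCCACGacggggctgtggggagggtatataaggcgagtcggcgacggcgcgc
Pdia6: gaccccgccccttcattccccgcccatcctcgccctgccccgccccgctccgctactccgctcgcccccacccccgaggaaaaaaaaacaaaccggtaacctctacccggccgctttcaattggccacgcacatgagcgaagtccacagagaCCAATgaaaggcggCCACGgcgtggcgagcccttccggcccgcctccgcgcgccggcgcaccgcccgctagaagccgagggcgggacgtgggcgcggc
Hspe1: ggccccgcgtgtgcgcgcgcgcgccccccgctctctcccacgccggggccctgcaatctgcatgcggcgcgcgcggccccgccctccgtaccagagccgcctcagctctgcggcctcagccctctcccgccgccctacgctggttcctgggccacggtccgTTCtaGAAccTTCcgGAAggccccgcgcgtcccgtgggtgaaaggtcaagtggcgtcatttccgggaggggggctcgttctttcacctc

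The matches of the other ER genes show how the fixed ends recur around differing middle bases, on either strand. They are printed on the strand of the gene, so that a match on the opposite strand begins with CGTGG and ends with ATTGG.
Hsp90b1 (chr10:86705638-86705656, minus strand): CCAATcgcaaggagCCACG
Hsp90b1 (chr10:86705533-86705551, minus strand): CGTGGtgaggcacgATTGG
Calr (chr8:84847075-84847093, minus strand): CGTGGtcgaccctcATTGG
Canx (chr11:50325800-50325818, minus strand): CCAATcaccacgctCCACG
Creld2 (chr15:88819520-88819538, plus strand): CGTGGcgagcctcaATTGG
Dnajc3 (chr14:118937827-118937845, plus strand): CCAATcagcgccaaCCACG
Herpud1 (chr8:94386377-94386387, plus strand): ATTGGgCCACG
Dnajb11 (chr16:22857852-22857862, plus strand): ATTGGcCCACG

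Among the 7 members with the first ER stress element, log2 fold changes ran from 0.06 (Canx) to 0.30 (Pdia6), all higher with MEK1-hi exosomes and none called. The 2 members with the second type went opposite ways, Herpud1 at -0.34 and Dnajb11 at 0.04. Of the 8 ER members with a window but no match, 7 were higher, and their values ran from -0.02 (Ern1) to 0.38 (Pdia4). The ranges with and without an exact match thus overlap. Pdia3, among these 8, holds the first pattern with its last letter changed, so members without a match may still hold a variant of the element. The 3 members with the heat shock element, Hspd1, Hspe1 and Hsph1, lay between -0.05 and 0.12.

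**Figure D2:**
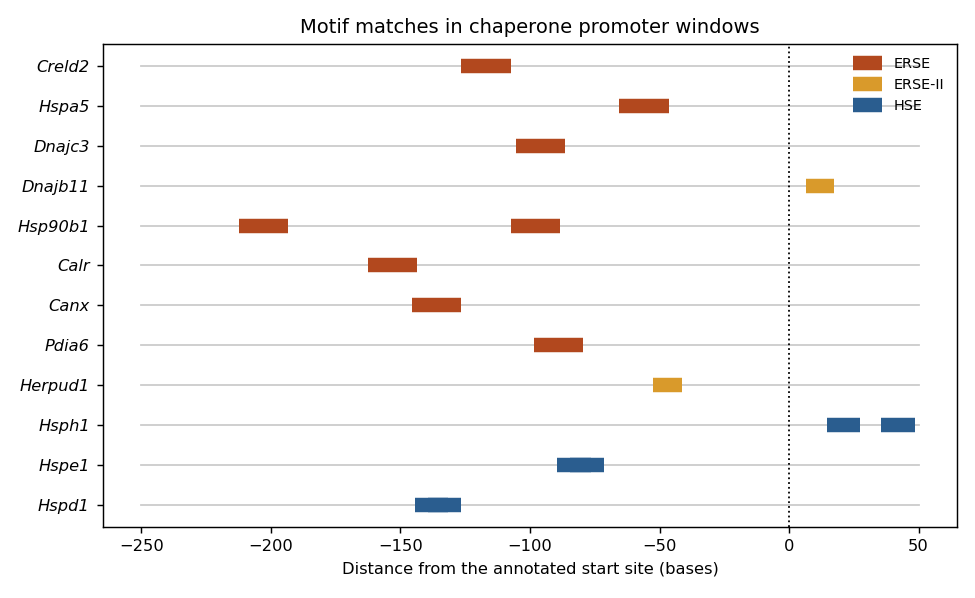
Positions of motif matches relative to the annotated start site (horizontal axis, bases, 0 at the start) in the 12 members with a match; red bars mark the ER stress element (ERSE), ochre bars its second type (ERSE-II) and blue bars the heat shock element (HSE). Hsp90b1 holds 2 ERSE matches, and the 2 bars of Hsph1 are 1 site seen from 2 annotated start sites.

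Genes of the ER Hsp70 system were expressed from 11.1 to 409.7 FPKM, and all 8 had higher values with MEK1-hi exosomes without being called. Hspa5 (chromosome 2, 34771970 to 34777547, mm10) was the most abundant, at 409.7 FPKM with MEK1-hi and 382 FPKM with MEK1-low exosomes. The largest difference was that of Hyou1 (chromosome 9, 44379490 to 44392369), an Hsp110-type partner that exchanges nucleotides on BiP. It stood at 50.6 FPKM with MEK1-hi and 42.8 FPKM with MEK1-low exosomes, a log2 fold change of 0.24 (Cuffdiff p = 0.104 and q = 0.803 in the authors' deposited table). Sdf2l1, which works with BiP and its J-domain partners, stood at 96.7 FPKM with MEK1-hi and 82.8 FPKM with MEK1-low exosomes. Manf, a secreted protein that binds BiP, stood at 159 FPKM with MEK1-hi and 138 FPKM with MEK1-low exosomes, in a row joined with Rbm15b, whose reads cannot be told apart here. Creld2, an ER protein induced by stress, stood at 36.6 FPKM with MEK1-hi and 32.9 FPKM with MEK1-low exosomes. These 4 genes had log2 fold changes of 0.16 to 0.24.

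The J-domain partners of BiP differed less. Dnajb9 (ERdj4) stood at 12.1 FPKM with MEK1-hi and 11.1 FPKM with MEK1-low exosomes. Dnajc3 (p58IPK, also an inhibitor of PERK) stood at 23.9 FPKM with MEK1-hi and 22.5 FPKM with MEK1-low exosomes. Dnajb11 (ERdj3) stood at 86.6 FPKM with MEK1-hi and 84.2 FPKM with MEK1-low exosomes. Together with Hspa5, these genes lay between 0.04 and 0.13 on the log2 fold change scale, and q-values in the authors' deposited table were 0.803 or more for all 8 genes of the system.

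The lectin chaperones and the ER Hsp90 were among the most abundant members, and all 3 had higher values with MEK1-hi exosomes without being called. Calr, which encodes calreticulin, had the highest level of all members, 798 FPKM with MEK1-hi and 762 FPKM with MEK1-low exosomes, rank 87 of 53139 rows with MEK1-hi exosomes. Canx, for the membrane-bound lectin calnexin, stood at 184 FPKM with MEK1-hi and 177 FPKM with MEK1-low exosomes. Hsp90b1 (chromosome 10, 86690209 to 86705509), for GRP94, stood at 341 FPKM with MEK1-hi and 307 FPKM with MEK1-low exosomes in a row joined with Gm15344 and Gm25745. Its log2 fold change of 0.15 was the largest of the 3 (Cuffdiff p = 0.349 and q = 0.999 in the authors' deposited table).

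The protein disulfide isomerases, which form and rearrange disulfide bonds in secreted proteins, held the largest 2 positive differences of the list, and only Herpud1, below 0, came between them in size. Pdia4 (chromosome 6, 47796141 to 47813430) stood at 67.7 FPKM with MEK1-hi and 52.1 FPKM with MEK1-low exosomes, in a row joined with Mir704. This was 1.30-fold higher, a log2 fold change of 0.38 (Cuffdiff p = 0.0109 and q = 0.236 in the authors' deposited table). Pdia6 (chromosome 12, 17266545 to 17284770), whose promoter is printed above, stood at 188 FPKM with MEK1-hi and 153 FPKM with MEK1-low exosomes. It was 1.23-fold higher, a log2 fold change of 0.30 (Cuffdiff p = 0.0493 and q = 0.573 in the authors' deposited table). Neither gene passed the threshold on q. Pdia3, the isomerase that works with calnexin and calreticulin, stood at 329 FPKM with MEK1-hi and 291 FPKM with MEK1-low exosomes, and P4hb, for the founding isomerase of the family, at 250.1 FPKM with MEK1-hi and 226 FPKM with MEK1-low exosomes.

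The 3 sensor genes of the unfolded protein response and Xbp1 had values that were close in both groups. Ern1, for the sensor and RNase IRE1, stood at 8.39 FPKM with MEK1-hi and 8.54 FPKM with MEK1-low exosomes. Eif2ak3, for the kinase PERK, stood at 7.02 FPKM with MEK1-hi and 6.60 FPKM with MEK1-low exosomes. Atf6 stood at 16.7 FPKM with MEK1-hi and 16.6 FPKM with MEK1-low exosomes. Xbp1, whose mRNA IRE1 splices into its active form, stood at 91.7 FPKM with MEK1-hi and 89.1 FPKM with MEK1-low exosomes; a gene level does not separate spliced from unspliced mRNA. These 4 genes lay between -0.02 and 0.09 on the log2 fold change scale. Herpud1 (chromosome 8, 94386438 to 94395377), a membrane protein of ER-associated degradation and a target of the response, lay furthest below 0 of all members tested. It stood at 9.38 FPKM with MEK1-hi and 11.9 FPKM with MEK1-low exosomes, a log2 fold change of -0.34 (Cuffdiff p = 0.202 and q = 0.967 in the authors' deposited table).

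**Figure D3:**
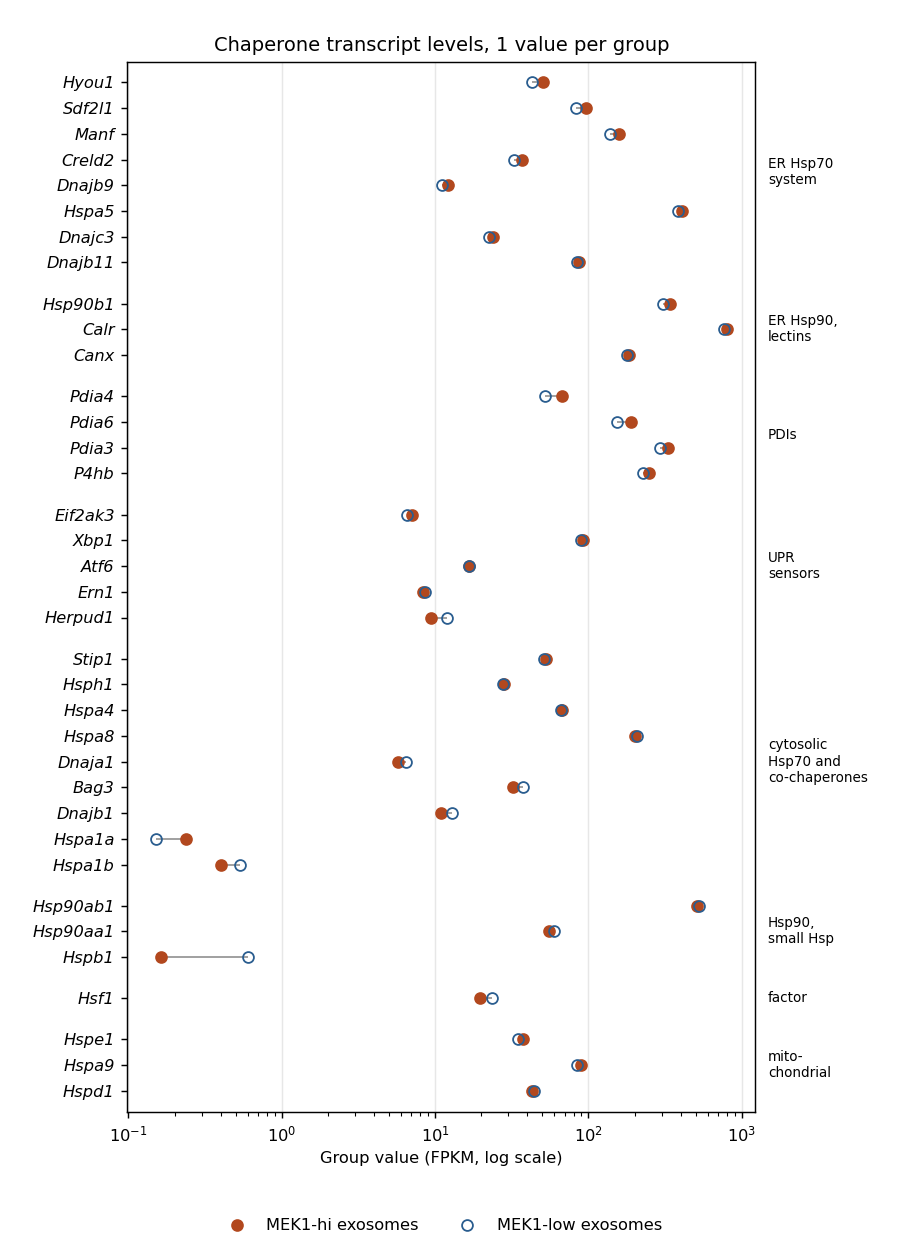
Group values in FPKM (horizontal axis, log scale) of all 36 members by role, filled circles for MEK1-hi and open circles for MEK1-low exosomes, 1 value per group and no error. Calr is highest, at 798 FPKM with MEK1-hi and 762 FPKM with MEK1-low exosomes; Hspa1a, Hspa1b and Hspb1 lie under 1 FPKM in both groups.

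The genes of the stress-induced Hsp70 and of a small heat shock protein stood under 1 FPKM in both groups. Hspa1a stood at 0.237 FPKM with MEK1-hi and 0.151 FPKM with MEK1-low exosomes. Its neighbour Hspa1b stood at 0.405 FPKM with MEK1-hi and 0.538 FPKM with MEK1-low exosomes. The pair lies 9951 bases apart on chromosome 17 (34969190 to 34972156 and 34956436 to 34959238), and 48.6% of the 100-base stretches of Hspa1a recur in other annotated transcripts, chiefly Hspa1b, so their levels are uncertain. Hspb1, for the small heat shock protein Hsp25, stood at 0.163 FPKM with MEK1-hi and 0.604 FPKM with MEK1-low exosomes. Of its 100-base stretches, 42.7% recur in the pseudogene Hsp25-ps1, so this level is uncertain as well. The authors tested none of these 3 genes.

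The main cytosolic chaperone genes differed little between the groups, and none was called. Hspa8, for the constitutive Hsp70, stood at 201 FPKM with MEK1-hi and 208 FPKM with MEK1-low exosomes, in a row joined with 3 small nucleolar RNA genes. Hsp90ab1, the constitutive Hsp90, stood at 508 FPKM with MEK1-hi and 526 FPKM with MEK1-low exosomes. The inducible Hsp90 gene Hsp90aa1 (chromosome 12, 110690605 to 110702728) stood at 55.4 FPKM with MEK1-hi and 59.5 FPKM with MEK1-low exosomes, a log2 fold change of -0.10 (Cuffdiff p = 0.777 and q = 0.999 in the authors' deposited table). Of the 100-base stretches of the Hspa8 and Hsp90aa1 transcripts, 62.8% and 47.5% recur in transcripts of other genes, mainly predicted copies, so these levels are uncertain too. The Hsp110-type genes Hspa4 and Hsph1 were almost level between the groups. Hspa4 stood at 67.1 FPKM with MEK1-hi and 66.5 FPKM with MEK1-low exosomes, and Hsph1 at 28.1 FPKM with MEK1-hi and 27.7 FPKM with MEK1-low exosomes. Stip1, which links Hsp70 to Hsp90, stood at 52.8 FPKM with MEK1-hi and 51.3 FPKM with MEK1-low exosomes.

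The heat shock factor gene and 3 genes of Hsp70 co-chaperones had lower values with MEK1-hi exosomes without being called. Hsf1 (chromosome 15, 76477422 to 76501913) stood at 19.5 FPKM with MEK1-hi and 23.4 FPKM with MEK1-low exosomes, a log2 fold change of -0.26 (Cuffdiff p = 0.185 and q = 0.954 in the authors' deposited table). Dnajb1 (chromosome 8, 83608193 to 83612653), the stress-induced J-domain partner of Hsp70, stood at 11.01 FPKM with MEK1-hi and 12.98 FPKM with MEK1-low exosomes, a log2 fold change of -0.24 (Cuffdiff p = 0.139 and q = 0.873 in the authors' deposited table). Bag3, a nucleotide exchange factor that directs Hsp70 clients to autophagy, stood at 32.4 FPKM with MEK1-hi and 37.2 FPKM with MEK1-low exosomes (q = 0.948 in the authors' deposited table). Dnaja1, a further J-domain partner in a row joined with Mir207, stood at 5.71 FPKM with MEK1-hi and 6.46 FPKM with MEK1-low exosomes (q = 0.999 in the authors' deposited table). These 4 genes had log2 fold changes of -0.26 to -0.18, and 14.8% of the 100-base stretches of Dnaja1 recur in other genes.

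The mitochondrial chaperones went both ways by small amounts. Hspd1 and Hspe1 encode Hsp60 and its partner Hsp10, which together form the folding chamber of the matrix. They lie head to head on chromosome 1 (55077835 to 55088243 on the minus strand and 55088132 to 55091307 on the plus strand) and overlap by 112 bases. The heat shock element printed above for Hspe1 also falls in a window of Hspd1. Hspe1 stood at 37.5 FPKM with MEK1-hi and 34.6 FPKM with MEK1-low exosomes, a log2 fold change of 0.12 (Cuffdiff p = 0.744 and q = 0.999 in the authors' deposited table). Hspd1 stood at 43.0 FPKM with MEK1-hi and 44.5 FPKM with MEK1-low exosomes, and Hspa9, for the matrix Hsp70 mortalin, at 89.001 FPKM with MEK1-hi and 84.4 FPKM with MEK1-low exosomes. The genes of this pair thus differed in opposite directions, neither past the threshold; 20.4% of the stretches of Hspe1 and 26.9% of those of Hspd1 recur in other genes.

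**Figure D4:**
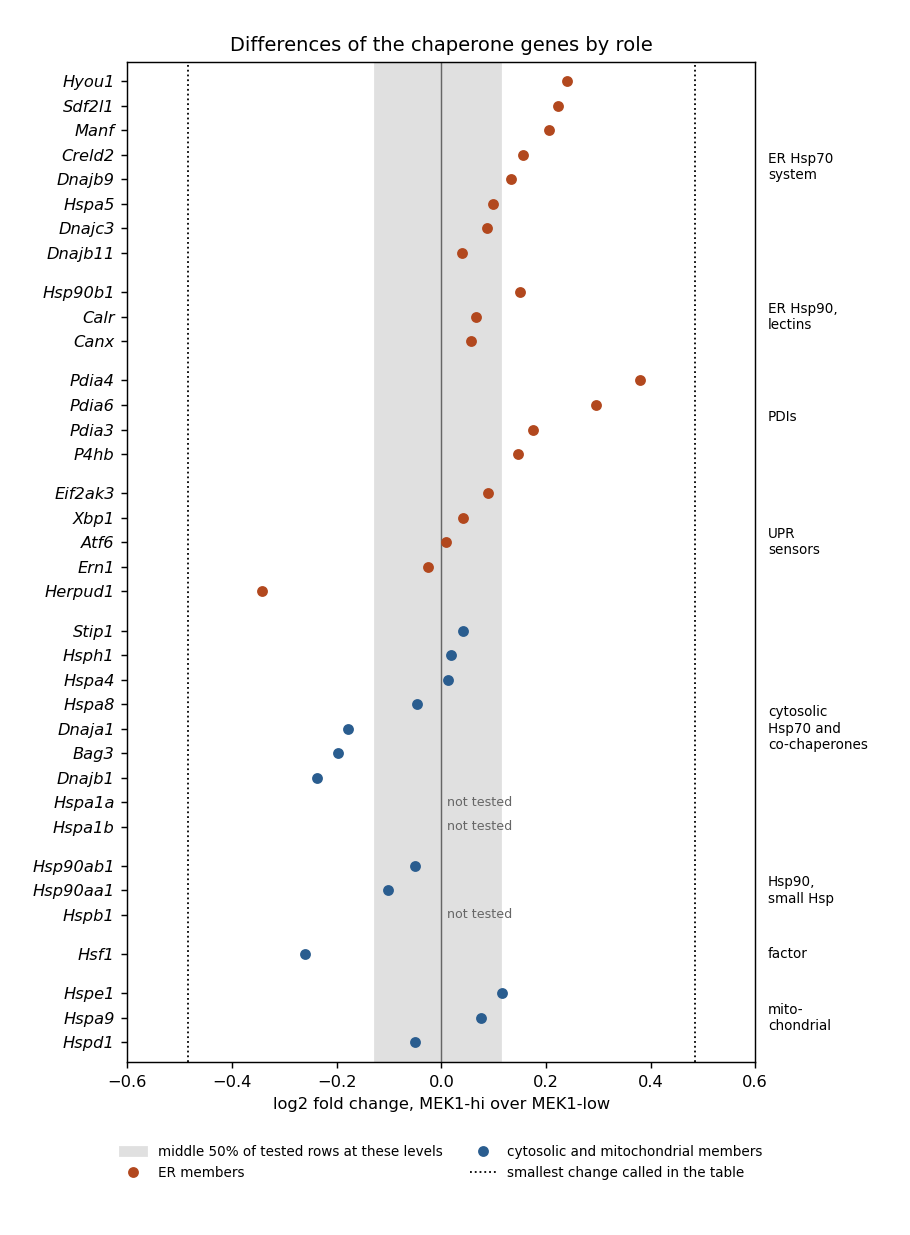
Log2 fold change of MEK1-hi over MEK1-low (horizontal axis) for each member by role, red for ER and blue for cytosolic and mitochondrial genes; the grey band is the middle 50% of tested rows at the members' levels (-0.13 to 0.11) and dotted lines mark the smallest change called in the table (0.48 in size). All 33 tested members lie between the dotted lines, 10 ER genes to the right of the band and 4 heat shock genes to its left.

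The members' differences were small beside those that the authors' test could call. Their largest absolute log2 fold change, 0.38 for Pdia4, was reached or exceeded by 20.5% of all tested rows, while the smallest called anywhere in the table was 0.48. Between 5.71 and 798 FPKM, the range of the tested members, 7963 rows were tested and 200 (2.51%) called. The middle 50% of those rows lay between -0.13 and 0.11. Of the 20 ER genes, 10 lay above this band, 9 within it and 1 (Herpud1) below it. Of the 13 heat shock genes, 1 (Hspe1) lay above it, 8 within it and 4 (Hsf1, Dnajb1, Bag3 and Dnaja1) below it. A q-value above the threshold does not show that the groups had equal levels.

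**Figure D5:**
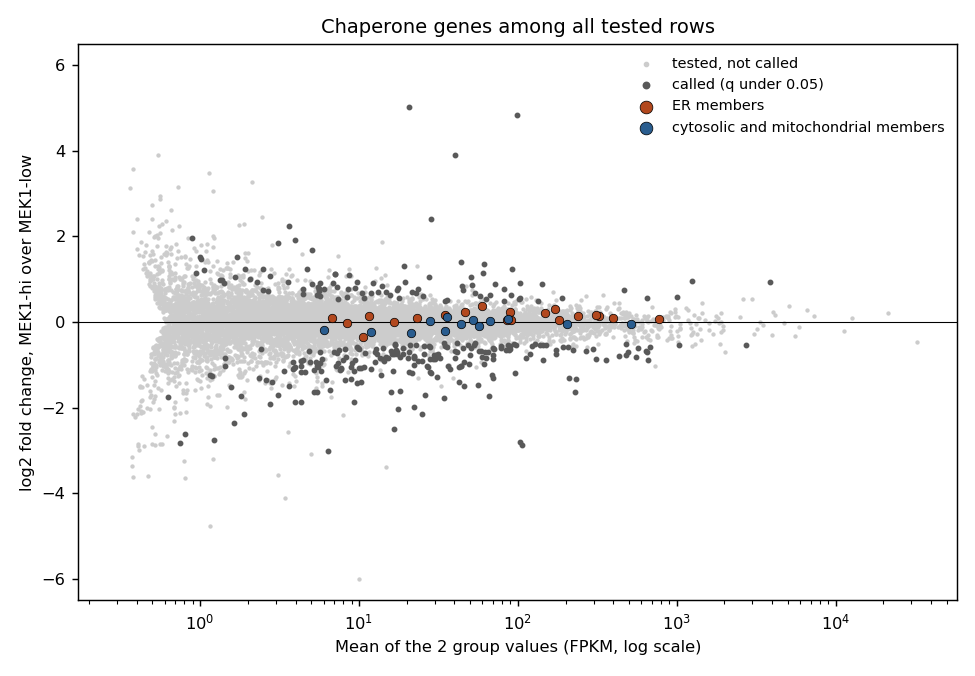
Log2 fold change of MEK1-hi over MEK1-low (vertical axis) against the mean of both group values (horizontal axis, FPKM, log scale) for tested rows, dark where called; 2 rows beyond 6.5 in size and 42 rows at 0 in a group are not drawn. The ER members (red) and cytosolic and mitochondrial members (blue) sit near 0 within the uncalled rows at every level.

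Further genes of protein folding are grouped here and below by their step. Over all tested rows, 2.44% were called (0.751% higher and 1.69% lower), and 50.2% had a higher value with MEK1-hi exosomes. In lists this short, 0 or 1 call stands near that share. In the PERK arm, 1 of 10 genes tested was called lower and 0 higher in the authors' deposited table. This was Cebpb, for a transcription factor that also acts outside the stress response, at 120.5 FPKM with MEK1-hi and 299 FPKM with MEK1-low exosomes (log2 fold change -1.31, q = 0.00349 in the authors' deposited table). Atf4, the central factor of the arm, stood at 122 FPKM with MEK1-hi and 129.7 FPKM with MEK1-low exosomes, and its target Ddit3 (CHOP) at 23.8 FPKM with MEK1-hi and 25.9 FPKM with MEK1-low exosomes. Atf3, a stress-induced factor, stood at 202 FPKM with MEK1-hi and 236 FPKM with MEK1-low exosomes (p = 0.127 in the authors' deposited table). Over the 9 genes of at least 1 FPKM, the log2 fold changes had a median of -0.11, with 1 FPKM added.

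Of 14 tested genes of ER-associated degradation, 0 were called and 10 had higher values, with a median log2 fold change of 0.03. Edem2, which trims mannose from misfolded glycoproteins, stood at 45.5 FPKM with MEK1-hi and 62.7 FPKM with MEK1-low exosomes (Cuffdiff p = 0.00245 and q = 0.0822 in the authors' deposited table), and was the only gene of these 14 with an unadjusted p under 0.05. Derl1 had the next smallest p, 0.399 in the authors' deposited table, and Os9, a lectin of this pathway, the highest level, at 85.0 FPKM with MEK1-hi and 88.6 FPKM with MEK1-low exosomes. Of 20 genes of ER translocation and glycosylation, 15 had higher values and 0 were called, with a median log2 fold change of 0.13. Rpn2, a subunit of the oligosaccharyltransferase, stood at 138 FPKM with MEK1-hi and 119.8 FPKM with MEK1-low exosomes, and Ssr4, of the translocon-associated complex, at 208 FPKM with MEK1-hi and 197 FPKM with MEK1-low exosomes. Stt3b, a catalytic subunit of the transferase, stood at 35.96 FPKM with MEK1-hi and 31.2 FPKM with MEK1-low exosomes. Of 18 genes of ER oxidation and other folding enzymes, 10 had higher values and 0 were called, also at an unadjusted p under 0.05. Their median log2 fold change was 0.04. Dnajc10, a reductase with a J domain, stood at 25.8 FPKM with MEK1-hi and 31.2 FPKM with MEK1-low exosomes. Serp1 stood at 69.96 FPKM with MEK1-hi and 57.3 FPKM with MEK1-low exosomes, and the prolyl isomerase gene Ppib at 355 FPKM with MEK1-hi and 341 FPKM with MEK1-low exosomes.

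All 8 subunit genes of the CCT chaperonin, the ring that folds actin and tubulin, had higher values with MEK1-hi exosomes, and 0 were called, also at an unadjusted p under 0.05. Cct6a, in a row joined with Snora15, stood at 205 FPKM with MEK1-hi and 127 FPKM with MEK1-low exosomes (p = 0.0921 in the authors' deposited table). Cct7 stood at 112 FPKM with MEK1-hi and 96.0 FPKM with MEK1-low exosomes. Their log2 fold changes had a median of 0.12, with 1 FPKM added. Of 26 other genes tested, chiefly of cytosolic chaperones and heat shock factors, 16 had higher values and 0 were called, and their median was 0.02. Dnajb6 stood at 13.1 FPKM with MEK1-hi and 16.3 FPKM with MEK1-low exosomes, Hspa13 at 11.8 FPKM with MEK1-hi and 10.1 FPKM with MEK1-low exosomes, and the kinase co-chaperone gene Cdc37 at 136 FPKM with MEK1-hi and 129.8 FPKM with MEK1-low exosomes. Of 12 genes of mitochondrial protein quality control, 9 had higher values and 0 were called, with a median of 0.08. Clpx, for the unfoldase of a matrix protease, stood at 12.97 FPKM with MEK1-hi and 9.92 FPKM with MEK1-low exosomes (p = 0.061 in the authors' deposited table). Hscb stood at 14.6 FPKM with MEK1-hi and 17.1 FPKM with MEK1-low exosomes, and the protease gene Htra2 at 58.3 FPKM with MEK1-hi and 69.3 FPKM with MEK1-low exosomes. Spg7 was not analysed here.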

How the data were processed

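RNA from 4 samples (750 ng each) was made into stranded mRNA libraries and read as 100-base pairs, with about 25000000 reads aimed at per sample, per the labels' protocols. Per the submitters' processing notes, the tools were FastQC 0.73, TopHat, Cufflinks and Cuffdiff, on build mm10; their settings are not given in the sources used here. The authors deposited 1 FPKM value per group, their test score and their p-value and q-value, per the file headers. The column named GFP exo was matched to MEK1-low exosomes through the treatment label. Over the 12648 tested rows, p-values adjusted by the Benjamini-Hochberg method matched the deposited q-values to within 5.19e-07.

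From these values, fold changes (MEK1-hi over MEK1-low), counts and medians were computed with Python 3.11.15, pandas 2.3.3 and numpy 2.4.6, and the calculations were tested on simulated data. Medians used log2(FPKM + 1) over tested rows of at least 1 FPKM in either group, which understates the change of low genes. The table held 55029 gene identifiers, of which 54771 (99.5%) matched a symbol. Gene positions are from GENCODE M21, of the same build. Some rows join several genes (871 of those tested, 5 members). Shared 100-base stretches were counted in the longest coding transcript of each member against all other GENCODE M21 transcripts on the same strand.

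The members and gene lists were chosen with earlier results of these data known. Every member is named. Full values are given for members called, members with an unadjusted p under 0.05 and the member of the largest absolute log2 fold change in each role. From the other lists, called genes, up to 2 genes of the smallest p and the gene of the highest level are named; Atf4 and Ddit3 were added after their values were seen, as was the second type of ER stress element. Alternatives comprised other thresholds, pseudocounts, level minimums, scalings and subsets.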

Additional observations from a re-analysis of the deposited data

How the results depend on the processing

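No member was called by Cuffdiff at q under 0.1. The rules of q under 0.01, a test statistic of at least 2 in size, 5 FPKM or more and single-gene rows were stricter. They can only remove calls, so their count of 0 was fixed in advance. At an unadjusted p under 0.05, 2 members and 1095 rows in all would be called, against 0 and 309, by construction of that looser rule. The heat shock median log2 fold change of -0.05 was -0.0069 where both groups were scaled to an equal sum of FPKM, a shift of 0.044 in every row. The ER median stayed between 0.084 and 0.15 and the difference of both medians between 0.13 and 0.17 under all alternatives run, judged as equal within 1.5 times. Part of this was fixed in advance. No tested member lay under 5 FPKM, and Hspa1a and Hspa1b were not tested, so those alternatives could move nothing. A shift common to all rows cancels or nearly cancels in the difference. Leaving out members that share 100-base stretches, scaling of the direction counts and a pseudocount of 1 for single genes were chosen after seeing the data. Pseudocounts and scalings were varied for 12 members (Hspa5, Hyou1, Hsp90b1, Pdia4, Pdia6, Herpud1, Hspa8, Hsp90aa1, Hsp90ab1, Dnajb1, Hsf1 and Hspe1). Among these, scaling to an equal sum of FPKM left the direction of each fold change as it was. Other pseudocounts cannot change a direction, and centring on the median of all tested rows shifted each value by only 0.0008. Of the other members, Ern1 changed to the higher side under the equal sum of FPKM. No paired analysis was possible because the table holds 1 value per group, and for the same reason no sample could be left out. Depth per sample is unknown, so small differences cannot be bounded.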
